A study of Mus musculus with 16 samples.

Results

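The Hedgehog ligands and the proteins that release or present them were measured in cell populations sorted from mouse colon and labelled as fibroblasts. The group is 8 genes: the ligands Ihh, Shh and Dhh, the co-receptors Cdon, Boc and Gas1, and Disp1 and Hhat, which act on the ligand in the cell that makes it. Its members are the 12 probe sets that the platform's gene table assigns to 1 of these genes and to no other, of 45141 probe sets on the array. They were taken by gene name. These genes, and the lists of other genes used below, were chosen with earlier results of these data known. Ihh, Shh, Gas1 and Disp1 have 1 probe set each, and Cdon, Boc, Dhh and Hhat have 2 each. A further probe set names a member beside another gene and was left out.

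Cells came from the colons of 4 C57BL/6 mice of genotype Gli1CreERT2-ZsGreen, whose age the labels do not give. Every mouse received 1 mg tamoxifen intraperitoneally on 5 consecutive days and was killed on day 6, so no population lacks the transgene or the drug. All cells were gated as Epcam- CD45- CD31- GP38+ and then split by the surface protein Sca1 and by ZsGreen into Sca1+ ZsGreen-high, Sca1+ ZsGreen-dim, Sca1+ ZsGreen-negative and Sca1- ZsGreen-negative cells. Each population of each mouse went onto 1 Affymetrix array, 16 arrays in all, and the number of arrays limits the precision. The CreERT2 driver is named for Gli1, a Hedgehog target, so ZsGreen reports cells in which that driver was active while tamoxifen was present. It need not follow Gli1 at the time of the sort.

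Hedgehog ligands are made as precursors, receive cholesterol and then palmitate, and leave the producing cell with the help of Dispatched. On the receiving cell Cdon, Boc and Gas1 bind the ligand and pass it to Patched, which then releases Smoothened and lets Gli proteins act on target genes. In the adult colon Ihh is known as the ligand of differentiated epithelial cells, and fibroblasts and smooth muscle beneath the epithelium as the cells that respond. The comparisons ask where ligand and co-receptor transcripts lie relative to the reporter and to Sca1.

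Values are array signals on a linear scale, and differences are log2 ± SE between means of 4 arrays from limma fitted to 45037 probe sets. Adjusted p is by Benjamini-Hochberg over all of these, with a threshold of 0.05, and a probe set under it is said to have passed. Values of single arrays run from mouse 1 to mouse 4. Signals hold the array background, so differences of dim genes are understated, and signals of different probe sets cannot be set against each other as amounts of RNA. Array medians lay between 662 and 687, and the highest of 23 nonspecific control probe sets between 234 and 488. Its mean was 272 in ZsGreen-high, 331.5 in ZsGreen-dim, 392 in Sca1+ ZsGreen-negative and 355.5 in Sca1- ZsGreen-negative cells, so how many arrays put a dim gene above it moves with the population.

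The arrays of mouse 2 did not match one another. Xist, transcribed from the inactive X chromosome, had signals of 189 and 172 and Eif2s3y, a Y-linked gene, of 3111 and 3095 in its ZsGreen-high and ZsGreen-dim arrays. In its Sca1+ and Sca1- ZsGreen-negative arrays Xist was 25502 and 28550 and Eif2s3y 146 and 197. Mouse 1 had low Xist, and mice 3 and 4 high Xist, on all their arrays. Results are therefore also given without mouse 2, and without mice 1 and 2, which leaves 8 arrays with high Xist. RNA of the cell types that the gate removes was present. Epcam, the epithelial protein the sort removed, averaged 3472 ± 2370 in ZsGreen-high, 10281 ± 3827 in ZsGreen-dim, 17884.5 ± 3522 in Sca1+ ZsGreen-negative and 17339 ± 5049 in Sca1- ZsGreen-negative cells (SD, n = 4). Pecam1 (CD31) averaged 969, 2180, 4064.5 and 4149 and Ptprc (CD45) 467.5, 487, 635 and 900 in the same order. Pdpn (GP38) averaged 7494, 6523, 3833 and 2196. Ly6a (Sca1) had no probe set assigned to it alone, so the Sca1 split could not be checked by its transcript. Gli1 averaged 2611 ± 321 in ZsGreen-high and 2323 ± 322 in ZsGreen-dim cells, against 1104 ± 299 in Sca1+ and 920.5 ± 318 in Sca1- ZsGreen-negative cells. The ratio of 3' to 5' Actb signal, a measure of RNA integrity and amplification, was 1.24 in ZsGreen-high, 1.155 in ZsGreen-dim and 1.11 in both ZsGreen-negative populations. For Gapdh this ratio was 0.997 in ZsGreen-high, 1.020 in ZsGreen-dim, 0.954 in Sca1+ and 0.917 in Sca1- ZsGreen-negative cells, another order. The part of either ratio in the differences was not tested. Of the labelled cell type, 12 fibroblast markers had a mean log2 signal of 14.35 in ZsGreen-high, 14.24 in ZsGreen-dim, 13.80 in Sca1+ ZsGreen-negative and 13.36 in Sca1- ZsGreen-negative cells.

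The genes whose level differed between populations are shown by the 250 bases before their annotated start (RefSeq, GRCm38.p6), where a factor acting on the promoter would be looked for. Capitals mark GGGTGG or its reverse complement CCACCC, the core of the sequence that Gli proteins bind. Ihh lies on chromosome 1 (gene span 74945315 to 74951672, minus strand), Cdon on chromosome 9 (35421528 to 35507652, plus strand) and Gas1 on chromosome 13 (60174405 to 60177535, minus strand). The Cdon start in the table lies 30548 bases inside the gene span, so its window belongs to an internal start. 
Ihh, chr1:74951673-74951922, minus strand: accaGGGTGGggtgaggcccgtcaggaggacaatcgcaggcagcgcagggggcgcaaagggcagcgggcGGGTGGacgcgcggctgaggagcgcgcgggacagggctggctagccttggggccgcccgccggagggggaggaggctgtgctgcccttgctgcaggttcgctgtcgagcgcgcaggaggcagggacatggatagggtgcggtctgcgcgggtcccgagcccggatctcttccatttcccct
Cdon, chr9:35451826-35452075, plus strand: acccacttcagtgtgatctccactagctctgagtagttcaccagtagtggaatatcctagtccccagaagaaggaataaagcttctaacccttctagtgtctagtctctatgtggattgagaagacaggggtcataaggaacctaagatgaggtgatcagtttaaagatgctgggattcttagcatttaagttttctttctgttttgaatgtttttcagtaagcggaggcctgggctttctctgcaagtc
Gas1, chr13:60177536-60177785, minus strand: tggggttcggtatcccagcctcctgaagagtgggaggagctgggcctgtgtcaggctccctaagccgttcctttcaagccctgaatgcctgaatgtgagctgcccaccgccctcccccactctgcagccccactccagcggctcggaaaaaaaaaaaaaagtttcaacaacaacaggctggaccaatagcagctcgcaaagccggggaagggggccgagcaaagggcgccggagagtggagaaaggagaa
The Ihh window holds 2 copies of GGGTGG, and the Cdon and Gas1 windows hold none. Of 32851 promoters in the table, 28.1% hold this core on either strand, and of 7 promoters of 6 members, those of Ihh and Dhh do. The longer Gli sequence TGGGTGGTC (GACCACCCA on the other strand), which contains the core, was in 0 of the 7 member promoters and in 0.225% of all. G and C made up 72.0% of the Ihh window, 42.8% of the Cdon window and 58.8% of the Gas1 window, against a median of 52.4% over all promoters. A match is a string of letters and not a measured site.

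Ihh, the ligand of intestinal epithelium, was lowest in ZsGreen-high cells and highest in both ZsGreen-negative populations. It read 799, 751, 1334 and 1051 in ZsGreen-high cells and 1428, 1281, 2065 and 1448 in ZsGreen-dim cells. It read 2146, 2522, 3683 and 1854 in Sca1+ ZsGreen-negative cells and 1785, 2910, 3478 and 3334 in Sca1- ZsGreen-negative cells. Every ZsGreen-high array lay below every ZsGreen-negative array, while ZsGreen-dim arrays overlapped all 3 other populations. The means were 984 ± 268, 1556 ± 348, 2551 ± 803 and 2877 ± 767 (SD, n = 4).

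In limma Ihh passed as lower in ZsGreen-high than in Sca1+ ZsGreen-negative cells, with a difference of -1.36 ± 0.25 (adjusted p = 0.00142, lower in all 3 mice other than mouse 2), and than in Sca1- ZsGreen-negative cells, with -1.54 ± 0.25 (adjusted p = 0.000331). ZsGreen-dim minus Sca1- cells was -0.87 ± 0.25 (adjusted p = 0.0371). That last call was lost in 8 of 20 refits that left out an array or a mouse: without mouse 2 it was -0.76 (adjusted p = 0.249), and without mice 1 and 2 -0.98 (adjusted p = 0.123). With arrays scaled to their hybridization controls, probe sets for spiked-in RNA, it was -0.76 (adjusted p = 0.0793). The first 2 differences were -1.24 (adjusted p = 0.0335) and -1.40 (adjusted p = 0.0134) without mouse 2, and -1.14 (adjusted p = 0.0492) and -1.52 (adjusted p = 0.0130) without mice 1 and 2.

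The order of Ihh between the remaining populations depends on how mice are treated. ZsGreen-dim differed from Sca1+ ZsGreen-negative cells by -0.69 ± 0.25 (adjusted p = 0.155, or 0.0183 with mouse as a block), and ZsGreen-high from ZsGreen-dim cells by -0.68 ± 0.25 (adjusted p = 0.217, or 0.0301 with the block). The first was negative in all 3 mice other than mouse 2, whose arrays of these kinds do not match, and the second in 4 of 4 mice. Without mouse 2 they were -0.59 (adjusted p = 0.535) and -0.64 (adjusted p = 0.511). The block, here and below, takes the arrays labelled mouse 2 as 1 mouse although they do not match, and was not fitted without them. Between the ZsGreen-negative populations the difference was -0.18 ± 0.25 (95% interval -0.71 to 0.36, adjusted p = 0.889), Sca1+ minus Sca1-, so the order of these neighbours is within their spread.

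**Figure D1:**
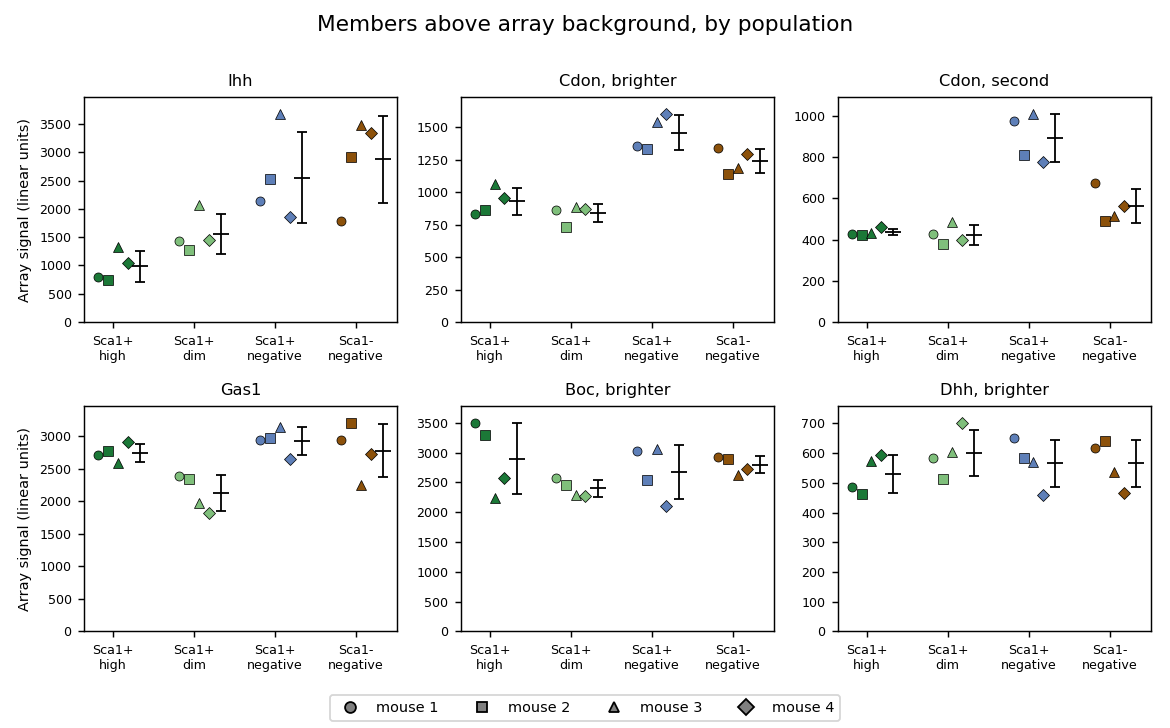
Signals (linear axis from 0) of the members' probe sets above the array background, 1 point per array and mouse, by population; bars are means and whiskers SD (n = 4). The 4 ZsGreen-high points of Ihh (751 to 1334) lie below all 8 ZsGreen-negative points (1785 to 3683), and both Cdon probe sets are lower in both ZsGreen-positive populations than in Sca1+ ZsGreen-negative cells.

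Epithelial transcripts moved with Ihh across the same populations. Of 16 measured colon epithelium markers, 16 were lower in ZsGreen-high than in Sca1+ ZsGreen-negative cells and 0 were higher, with a median difference of -2.40 (13 lower without mouse 2). Of all probe sets 11.0% passed as lower there. Cdh1, the epithelial cadherin, averaged 4556 in ZsGreen-high and 25346 in Sca1+ ZsGreen-negative cells, and Vil1, a brush border protein, 2063 and 10960. The mean log2 level of the list ran from 10.77 to 12.69 in ZsGreen-high, 12.59 to 13.71 in ZsGreen-dim, 13.44 to 14.21 in Sca1+ ZsGreen-negative and 13.16 to 14.27 in Sca1- ZsGreen-negative arrays. All 16 markers lay above the highest nonspecific control on all 16 arrays, so none was at background in any population. In sorted bulk cells, fewer cells of a type and less RNA per cell cannot be told apart.

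Over the 16 arrays log2 Ihh correlated with the mean of the epithelial list at Pearson r = 0.933 (Spearman 0.950), with surface colonocyte markers at 0.944 and with crypt markers at 0.828. Its r was also 0.920 with mesothelial markers, 0.692 with those of interstitial cells of Cajal, 0.653 with glial, 0.624 with leukocyte and 0.453 with endothelial markers. It was -0.661 with smooth muscle and -0.858 with fibroblast markers. The mesothelial markers were dim, with levels given below beside Cdon. These are descriptions, since the arrays share mice and populations. With the epithelial mean as a covariate in limma, the Ihh difference between ZsGreen-high and Sca1+ ZsGreen-negative cells was -0.08 (adjusted p = 0.979) and that against Sca1- cells -0.27 (adjusted p = 0.762). In that fit only 1 of 45037 probe sets passed for ZsGreen-high against Sca1+ ZsGreen-negative cells, and the covariate itself differs between these populations. Of 10016 genes above the median level, those most like Ihh over the 16 arrays were Slc16a5 (r = 0.988), Prr15l (r = 0.986) and Ugt1a9 (r = 0.983).

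**Figure D2:**
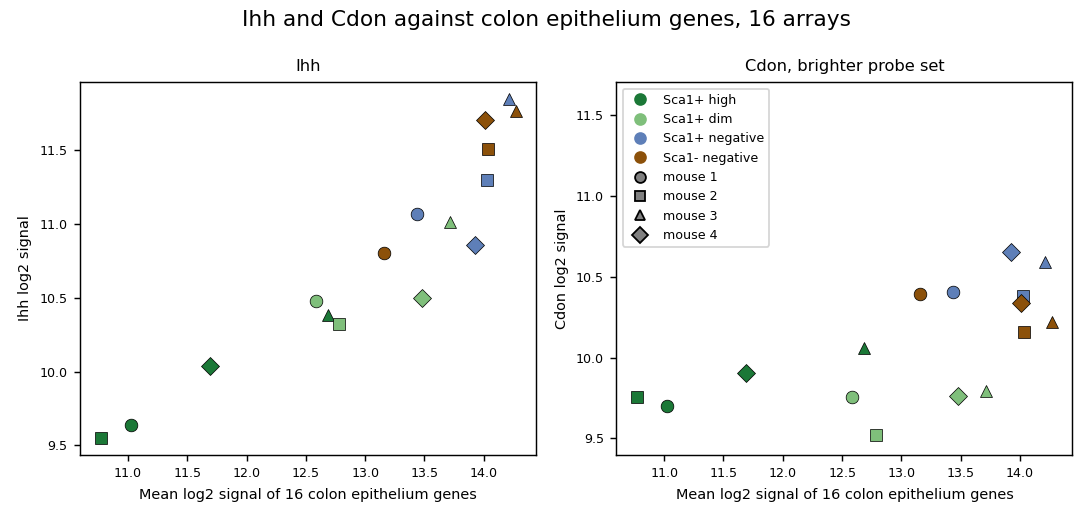
Ihh signal (log2) and the leading Cdon signal (log2) against the mean log2 signal of 16 colon epithelium markers, 1 point per array, coloured by population. Ihh follows the epithelial mean closely (r = 0.933, 16 arrays), and Cdon less closely (r = 0.639). The ZsGreen-high arrays, with epithelial means of 10.77 to 12.69, lie below all ZsGreen-negative arrays (13.16 or above), and the ZsGreen-dim arrays (12.59 to 13.71) overlap both.

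Shh, the ligand best known from development, stayed near the array background. It ran from 276 to 376 over the 16 arrays, with means of 314 in ZsGreen-high, 341.5 in ZsGreen-dim, 338 in Sca1+ ZsGreen-negative and 330 in Sca1- ZsGreen-negative cells. It exceeded the highest nonspecific control on 3 ZsGreen-high and 2 ZsGreen-dim arrays and on 0 arrays of the ZsGreen-negative populations. Those counts run against the means, which were lowest in ZsGreen-high cells, and the control itself was lowest there. No order of the populations can be read from it.

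Dhh, the ligand that Schwann cells make in peripheral nerve, was above the control on all 16 arrays at its brighter probe set. It read 486, 462, 575 and 593 in ZsGreen-high and 583, 512, 603 and 702 in ZsGreen-dim cells. It read 650, 583, 571 and 460 in Sca1+ and 618, 641, 538 and 466 in Sca1- ZsGreen-negative cells. All 4 populations overlapped, with means of 529, 600, 566 and 566.

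In limma no Dhh difference passed in the 6 comparisons. Those of the brighter probe set ran from -0.18 to 0.09 (adjusted p = 0.742 in the F test over the populations) and those of the second from -0.08 to 0.11. At the brighter one the difference between Sca1+ and Sca1- ZsGreen-negative cells was 0.00 ± 0.13 (95% interval -0.28 to 0.28, adjusted p = 0.999). In the same comparison, of 9 measured Schwann and enteric glia markers, 7 were lower in Sca1+ than in Sca1- ZsGreen-negative cells and 0 higher. Their median difference was -1.01 (4 lower without mouse 2), and 2.31% of all probe sets passed in either direction. Among them Mbp, a myelin protein, averaged 335 against 1250.5, and Gfap, the glial filament protein, 527 against 1612. The 335 lies below the mean highest control of the Sca1+ ZsGreen-negative arrays (392). The part of glial cells in the Dhh signal was not tested. The second Dhh probe set ran from 259 to 333 and exceeded the control only on the 4 ZsGreen-high arrays, with means of 303, 279, 285.5 and 294.

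Hhat, the acyltransferase that adds palmitate to the ligand, and Disp1, the transporter-like protein that releases it, were dim. The leading Hhat probe set averaged 356 ± 59 in ZsGreen-high, 314 ± 34 in ZsGreen-dim, 308 ± 29 in Sca1+ ZsGreen-negative and 290 ± 32 in Sca1- ZsGreen-negative cells (SD, n = 4). It exceeded the control on 3, 1, 0 and 0 arrays, and ZsGreen-high minus Sca1- cells was 0.29 ± 0.12 (adjusted p = 0.0761). The other Hhat probe set ran from 235 to 293. Disp1 averaged 383.5 ± 50 in ZsGreen-high, 340 ± 48 in ZsGreen-dim, 370 ± 71 in Sca1+ ZsGreen-negative and 382 ± 66 in Sca1- ZsGreen-negative cells. It exceeded the control on 4, 2, 2 and 3 arrays in that order. Neither gene had a difference that passed in limma.

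**Figure D3:**
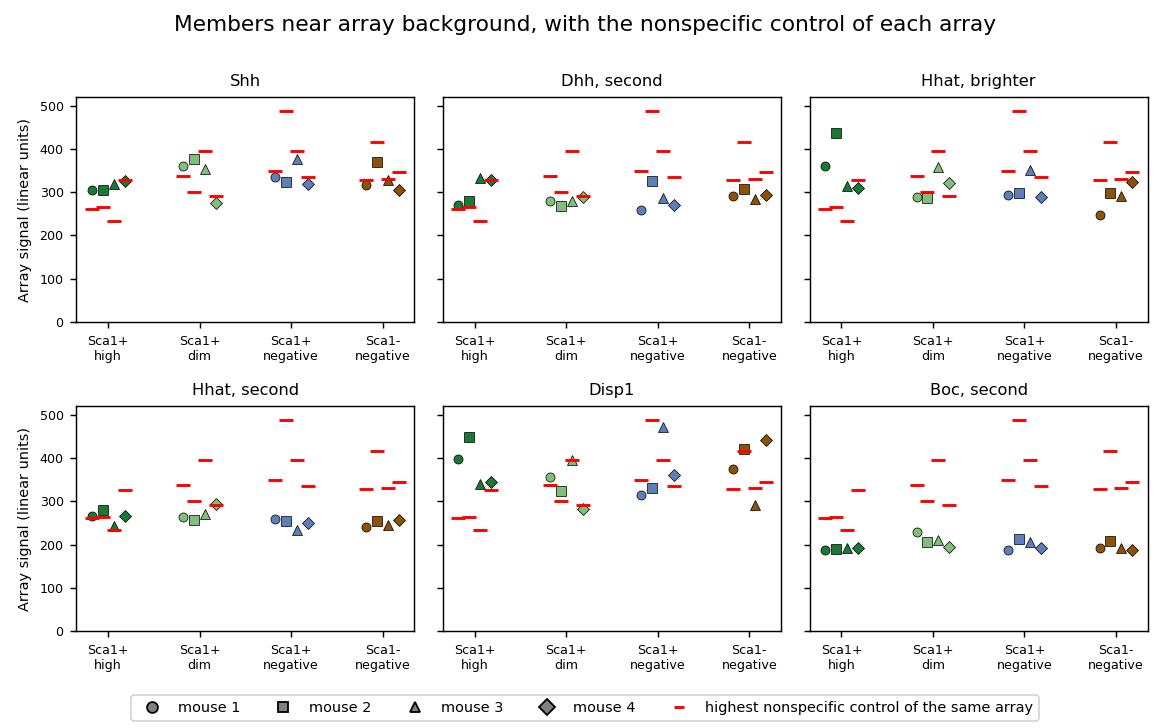
Signals (linear axis from 0) of the members' probe sets near the array background, by population, 1 point per array, with each array's highest nonspecific control. Points of Shh, Hhat, Disp1, the second Dhh and the second Boc probe set lie between 187 and 473, around or below the controls at 234 to 488.

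Cdon, an immunoglobulin-family co-receptor that binds Hedgehog ligands at the cell surface, was lower in both ZsGreen-positive populations than in ZsGreen-negative cells, at both its probe sets. The brighter one read 831, 863, 1067 and 959 in ZsGreen-high and 864, 736, 886 and 869 in ZsGreen-dim cells. It read 1355, 1333, 1542 and 1607 in Sca1+ and 1343, 1144, 1190 and 1293 in Sca1- ZsGreen-negative cells. All 8 ZsGreen-positive arrays lay below all 8 ZsGreen-negative arrays.

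The means of this probe set were 930 ± 106, 839 ± 69, 1459 ± 136 and 1242.5 ± 91.5 (SD, n = 4). In limma ZsGreen-high minus Sca1+ ZsGreen-negative cells was -0.65 ± 0.09 (adjusted p = 0.000396) and ZsGreen-dim minus the same cells -0.80 ± 0.09 (adjusted p = 0.00182). Against Sca1- ZsGreen-negative cells the differences were -0.42 ± 0.09 (adjusted p = 0.00317) for ZsGreen-high and -0.57 ± 0.09 (adjusted p = 0.00151) for ZsGreen-dim cells. All 4 were negative in each of the 3 mice other than mouse 2, whose arrays of these kinds do not match. Without mouse 2 they were -0.66 (adjusted p = 0.0102), -0.78 (adjusted p = 0.0407), -0.43 (adjusted p = 0.0158) and -0.55 (adjusted p = 0.0194). ZsGreen-dim against Sca1+ ZsGreen-negative cells did not pass without mouse 4 (adjusted p = 0.0843), and ZsGreen-high against Sca1- cells did not without mice 1 and 2 (-0.29, adjusted p = 0.0800). Scaled to hybridization controls, which moves the median of all probe sets to 0.39 in ZsGreen-high comparisons, the ZsGreen-high differences were -0.27 (adjusted p = 0.111) and -0.02 (adjusted p = 0.890), or -0.66 and -0.42 relative to that median.

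The second Cdon probe set read 427, 424, 432 and 459 in ZsGreen-high and 429, 377, 484 and 398 in ZsGreen-dim cells. It read 976, 808, 1010 and 777 in Sca1+ and 676, 491, 513 and 563 in Sca1- ZsGreen-negative cells. Sca1+ ZsGreen-negative cells stood above every other array, which the brighter probe set did not show.

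Its means were 435.5 ± 16, 422 ± 46.5, 893 ± 117 and 561 ± 82.5 (SD, n = 4). ZsGreen-high minus Sca1+ ZsGreen-negative cells was -1.03 ± 0.11 (adjusted p = 0.000142 in limma), and ZsGreen-dim minus those cells -1.08 ± 0.11 (adjusted p = 0.00112). The ZsGreen-dim difference passed in all 27 alternative settings and leave-one-out refits, with a highest adjusted p of 0.0433. Sca1+ exceeded Sca1- ZsGreen-negative cells by 0.67 ± 0.11 (adjusted p = 0.00345, higher in 4 of 4 mice). That call was lost without mouse 3 (adjusted p = 0.0558) and without mice 1 and 2 (0.72, adjusted p = 0.0904). Against Sca1- cells ZsGreen-high differed by -0.35 ± 0.11 (adjusted p = 0.0239) and ZsGreen-dim by -0.41 ± 0.11 (adjusted p = 0.0282). Each of these was lost in 7 of 20 leave-one-out refits, and without mouse 2 they were -0.40 (adjusted p = 0.0514) and -0.41 (adjusted p = 0.115). Scaled to hybridization controls they were 0.04 (adjusted p = 0.799) and -0.30 (adjusted p = 0.289), or -0.35 and -0.40 relative to the moved median of all probe sets.

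Whether the 2 Cdon probe sets differ from each other was not tested. The brighter one was higher in Sca1+ than in Sca1- ZsGreen-negative cells by 0.23 ± 0.09 (adjusted p = 0.323 in limma), in 4 of 4 mice but with overlapping arrays. Neither had a difference that passed between the ZsGreen-positive populations: ZsGreen-high minus ZsGreen-dim was 0.15 ± 0.09 (95% interval -0.06 to 0.35, adjusted p = 0.522) and 0.05 ± 0.11 (95% interval -0.19 to 0.29, adjusted p = 0.890).

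Other cell types' transcripts moved with Cdon in part. Where ZsGreen-dim was set against Sca1+ ZsGreen-negative cells, 0 of 16 epithelial markers passed in either direction in limma (8 lower with mouse as a block), with a median of -0.83. Between Sca1+ and Sca1- ZsGreen-negative cells 0 of 16 passed, with a median of 0.06. With the epithelial mean as a covariate the ZsGreen-dim differences against Sca1+ ZsGreen-negative cells were -0.71 (adjusted p = 0.00949) and -1.102 (adjusted p = 0.00350) for the brighter and the second probe set. Those of ZsGreen-high cells were -0.39 (adjusted p = 0.540) and -1.101 (adjusted p = 0.119). Of 9 mesothelial markers 5 were lower in ZsGreen-high and 1 in ZsGreen-dim than in Sca1+ ZsGreen-negative cells (3 and 1 without mouse 2), and none was higher. The shares of all probe sets that passed as lower in these 2 comparisons were 11.0% and 0.324%. The mesothelial mean correlated with the 2 probe sets at r = 0.856 and 0.766 over the 16 arrays, as a description. This list was dim. Its mean log2 signals were 8.70 in ZsGreen-high, 8.90 in ZsGreen-dim, 9.35 in Sca1+ and 9.27 in Sca1- ZsGreen-negative cells. They lay below those of the other cell type lists in each population. Endothelial and crypt means correlated with the brighter probe set at 0.689 and 0.702 and with the second at 0.650 and 0.658. The fibroblast mean correlated with the brighter and the second at -0.606 and -0.353, and the smooth muscle mean at -0.328 and -0.42. In ZsGreen-high against Sca1+ ZsGreen-negative cells 12 of 16 endothelial markers were lower and 1 higher, and 6 of 13 crypt markers lower and 2 higher. Leaving out mouse 2 gave 2 lower and 0 higher endothelial and 3 lower and 0 higher crypt markers. There 26.2% of all probe sets passed in either direction. Against Sca1- ZsGreen-negative cells 8 of 9 glial markers were lower in ZsGreen-high and 8 of 9 in ZsGreen-dim cells, and 6 of 7 and 5 of 7 markers of interstitial cells of Cajal, with none higher. These were 8 and 6 glial and 6 and 5 Cajal markers without mouse 2. Beside them, 14.0% and 4.94% of all probe sets passed as lower on all 16 arrays. The part of these cell types in the Cdon differences was not tested. The genes most like the brighter Cdon probe set were Sypl (r = 0.874), Slit2 (r = 0.871) and Sod2 (r = 0.849).

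Gas1, a membrane-anchored co-receptor, was lowest in ZsGreen-dim cells. It read 2706, 2769, 2590 and 2912 in ZsGreen-high and 2383, 2347, 1967 and 1822 in ZsGreen-dim cells. It read 2936, 2974, 3147 and 2643 in Sca1+ and 2943, 3204, 2244 and 2725 in Sca1- ZsGreen-negative cells. The ZsGreen-dim arrays lay below all ZsGreen-high and all Sca1+ ZsGreen-negative arrays, and overlapped the Sca1- array of mouse 3.

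Its means were 2744 ± 134, 2130 ± 278, 2925 ± 209 and 2779 ± 407 (SD, n = 4). In limma ZsGreen-dim minus Sca1- cells was -0.38 ± 0.11 (adjusted p = 0.0348), which was lost in 8 of 20 leave-one-out refits (-0.36, adjusted p = 0.165 without mouse 2). ZsGreen-dim minus Sca1+ ZsGreen-negative cells was -0.46 ± 0.11 (adjusted p = 0.0547, or 0.0127 with mouse as a block), and ZsGreen-high minus ZsGreen-dim 0.37 ± 0.11 (adjusted p = 0.117, or 0.0497 with the block). Scaled to hybridization controls, the last was 0.67 (adjusted p = 0.0125) and ZsGreen-dim minus Sca1- cells -0.28 (adjusted p = 0.414). Relative to the median of all probe sets in that scaling they were 0.367 and -0.373. ZsGreen-dim minus Sca1+ ZsGreen-negative cells was -0.51 (adjusted p = 0.324) and ZsGreen-high minus ZsGreen-dim 0.42 (adjusted p = 0.309) without mouse 2. ZsGreen-high differed from Sca1+ ZsGreen-negative cells by -0.09 ± 0.11 (95% interval -0.32 to 0.14, adjusted p = 0.605). Slit2 (r = 0.706), Odf2 (r = 0.690) and Nploc4 (r = 0.682) were the genes most like Gas1.

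Boc, the close relative of Cdon, had no difference that passed in any comparison. Its brighter probe set read 3500, 3294, 2243 and 2569 in ZsGreen-high and 2580, 2461, 2281 and 2272 in ZsGreen-dim cells. It read 3022, 2536, 3062 and 2096 in Sca1+ and 2928, 2897, 2633 and 2732 in Sca1- ZsGreen-negative cells. The ZsGreen-high arrays of mice 1 and 2, those with low Xist, were the highest of all 16, and those of mice 3 and 4 lay within the range of the other populations.

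The means of Boc were 2902 ± 593, 2398.5 ± 149, 2679 ± 456 and 2797.5 ± 139 (SD, n = 4), and the F test of limma gave an adjusted p of 0.468. Its largest difference, ZsGreen-high minus ZsGreen-dim, was 0.25 ± 0.14 (adjusted p = 0.428), and 0.08 (adjusted p = 0.930) without mice 1 and 2. ZsGreen-dim minus Sca1- cells was -0.22 ± 0.14 (adjusted p = 0.336), though their arrays did not overlap. The second Boc probe set ran from 187 to 230 and was above the control on 0 of 16 arrays. Aktip (r = 0.839), Tia1 (r = 0.817) and Trappc13 (r = 0.786) were most like the brighter one. The most like genes of Dhh, Shh, Hhat and Disp1 were Trp53rkb (r = 0.679), Wfdc15a (r = 0.769), Tor1a (r = 0.872) and Btbd9 (r = 0.759).

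**Figure D4:**
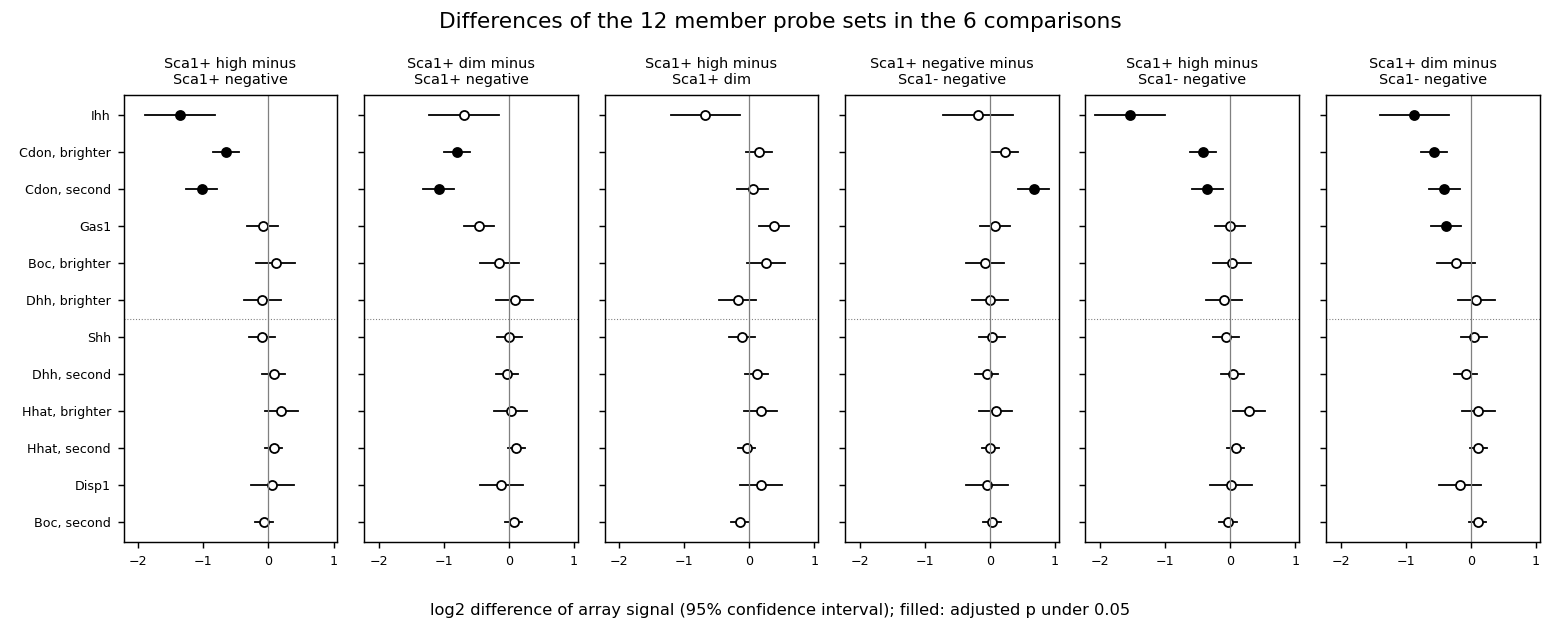
Log2 differences of the 12 probe sets (points, with 95% intervals as lines) in the 6 comparisons of populations, the first-named minus the second. Ihh (-1.36 and -1.54 in ZsGreen-high against Sca1+ and Sca1- ZsGreen-negative cells) and the Cdon probe sets (-0.35 to -1.08) stand left of 0 (the -0.35 is 0.04 when scaled to hybridization controls, and again -0.35 relative to the median of all probe sets in that scaling), and the second Cdon probe set stands right of 0 (0.67) for Sca1+ against Sca1- ZsGreen-negative cells.

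Counted over all 12 probe sets, 3 passed as lower and 0 as higher in ZsGreen-high than in Sca1+ ZsGreen-negative cells (limma). Of all probe sets 26.2% passed in that comparison, 11.0% as lower. In ZsGreen-dim against Sca1+ ZsGreen-negative cells 2 of 12 passed, both Cdon and both lower, against 0.933% of all probe sets (0.324% as lower). Between ZsGreen-high and ZsGreen-dim cells 0 of 12 passed in limma and 3 had an unadjusted p under 0.05, against 0.757% of all passing, and with mouse as a block 2 passed. In Sca1+ against Sca1- ZsGreen-negative cells 1 of 12 passed, as higher, against 2.31% of all (1.03% as higher).

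Against Sca1- ZsGreen-negative cells 3 of 12 were lower in ZsGreen-high (31.2% of all passed, 14.0% as lower) and 4 of 12 in ZsGreen-dim cells (11.6% of all, 4.94% as lower). The median difference of the 12 was -0.08 in ZsGreen-high and -0.07 in ZsGreen-dim against Sca1+ ZsGreen-negative cells, beside 0.01 for all probe sets in both. The F test over the 4 populations passed for 4 of 12, against 27.8% of all. Without mouse 2 the counts were 3 for ZsGreen-high and 2 for ZsGreen-dim against Sca1+ ZsGreen-negative cells, 1 for Sca1+ against Sca1- ZsGreen-negative cells, and 2 for ZsGreen-high and 1 for ZsGreen-dim against Sca1- cells. In that fit 14 of 45037 probe sets passed for ZsGreen-dim against Sca1+ ZsGreen-negative cells, both Cdon probe sets among them. The comparisons share arrays, so their counts are not independent, and neither are probe sets of 1 gene. By the leading probe set, 2 of 8 genes were lower in ZsGreen-high and 1 of 8 in ZsGreen-dim than in Sca1+ ZsGreen-negative cells. Against Sca1- cells 2 and 3 of 8 were lower, and between the ZsGreen-negative populations 0 of 8 passed.

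In the fit to all 16 arrays, most measured receptors, transducers and targets of the pathway were higher in ZsGreen-high cells, where Ihh and Cdon were lower. Of 22 measured receptor and transduction genes, 16 were higher and 1 lower than in Sca1+ ZsGreen-negative cells, and 10 and 0 without mouse 2. Of all probe sets 26.2% passed in that comparison in either direction, 11.0% as lower. Ptch1, the receptor, averaged 30914 in ZsGreen-high against 12429 in Sca1+ ZsGreen-negative cells (1.59 ± 0.42, adjusted p = 0.0125 in limma, and 1.27, adjusted p = 0.138 without mouse 2). Gli2, the main activator among the Gli proteins, differed by 1.43 ± 0.22 (adjusted p = 0.000491) and Gli1 by 1.27 ± 0.21 (adjusted p = 0.000688). The 1 lower gene was Csnk1a1, a kinase acting on Gli proteins (-0.33, or 0.05 scaled to hybridization controls, named after its value was seen). Of 13 measured targets 9 were higher and 1 lower (5 and 0 without mouse 2), led by Hhip, a secreted and membrane-bound ligand trap (3.08 ± 0.36, adjusted p = 0.000160), and by the transcription factors Foxf2 (1.67 ± 0.39, adjusted p = 0.00597, or 0.0808 without mouse 2) and Osr1 (1.63 ± 0.25, adjusted p = 0.000542). Gli1, Ptch1 and Hhip are counted in more than 1 list. The cells were sorted by a reporter whose driver is named for Gli1. Higher Gli1 and targets in ZsGreen-high cells are therefore not independent of the sort.

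Genes that carry or capture the ligand rose in part: of 10 measured, 5 were higher and 0 lower (3 and 0 without mouse 2) in ZsGreen-high than in Sca1+ ZsGreen-negative cells. After Hhip they were led by Scube1 (1.25 ± 0.23, adjusted p = 0.00149), of a family that helps release the ligand, and Gpc1 (1.24 ± 0.24, adjusted p = 0.00194), a glypican. In ZsGreen-dim cells 1 of 10 capture genes, 1 of 22 transduction genes and 4 of 13 targets were higher than in Sca1+ ZsGreen-negative cells, and none was lower. There 0.933% of all probe sets passed in either direction. With mouse as a block 3 capture genes were higher and 1 lower, 9 transduction genes higher and 0 lower, and 9 targets higher and 1 lower. Among those higher were Scube1 (1.07, adjusted p = 0.0459), Gli1 (1.098, adjusted p = 0.0294), Osr1 (1.21, adjusted p = 0.0426) and Sfrp1, a secreted Wnt binder (1.04, adjusted p = 0.0457), in limma. Without mouse 2 none of the 3 lists had a gene that passed in this comparison, and the differences of these 4 genes were 1.07, 1.03, 1.14 and 0.94 (adjusted p = 0.328 to 0.372).

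In Sca1+ against Sca1- ZsGreen-negative cells 2 of 10 capture genes were lower and none of the 22 transduction genes passed in limma. They were Hhip (2052 against 6274.5, -1.69 ± 0.36, adjusted p = 0.0197) and Scube2 (380 against 987.5, -1.18 ± 0.28, adjusted p = 0.0399). Between ZsGreen-high and ZsGreen-dim cells Hhip (15629 against 4540, 1.77 ± 0.36, adjusted p = 0.0398) and Sufu, a negative regulator that binds Gli proteins (992.5 against 685, 0.54 ± 0.08, adjusted p = 0.0242), passed as higher. Without mouse 2 none of these passed: Hhip was -1.43 (adjusted p = 0.264) and Scube2 -1.38 (adjusted p = 0.127) for Sca1+ against Sca1- cells, and Hhip 1.89 (adjusted p = 0.273) and Sufu 0.48 (adjusted p = 0.239) for ZsGreen-high against ZsGreen-dim cells. The fibroblast list had 6 of 12 higher and 0 lower in ZsGreen-high than in Sca1+ ZsGreen-negative cells (1 and 0 without mouse 2), beside 12 of 16 endothelial markers lower and 1 higher (2 lower and 0 higher without mouse 2). Of 10 smooth muscle markers 8 were higher and 0 lower there, with a median of 1.01 (5 higher without mouse 2), and 2 were higher in ZsGreen-high than in ZsGreen-dim cells (5 with the block, 0 without mouse 2). How far these other cells set the pathway counts was not tested. All these counts for ZsGreen-high against Sca1+ ZsGreen-negative cells stand beside 26.2% of all probe sets passing in either direction.

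**Figure D5:**
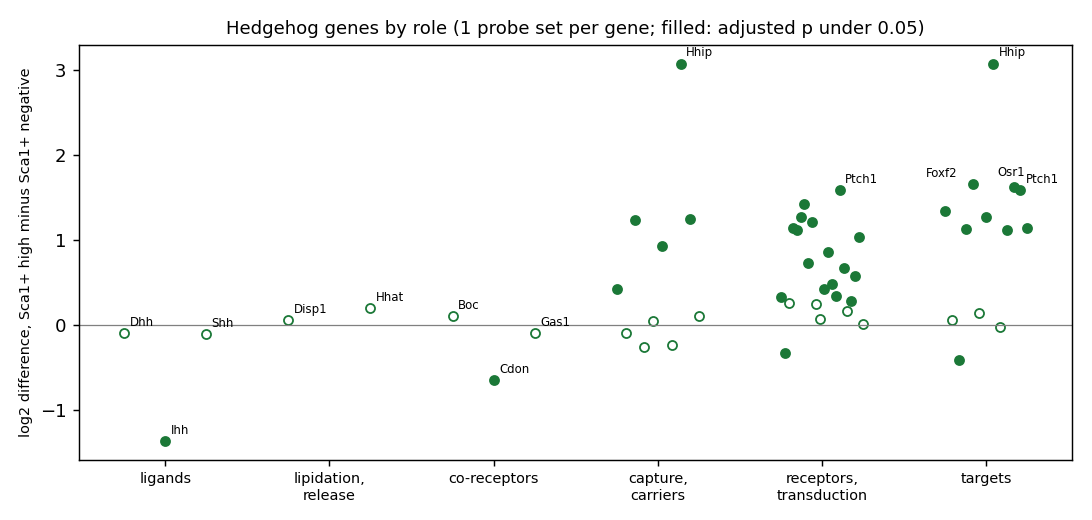
Log2 differences of the pathway's genes, 1 point per gene (the brightest probe set) in columns by role, for ZsGreen-high minus Sca1+ ZsGreen-negative cells; filled points passed in limma. Receptors, transduction genes and targets lie mostly above 0 (16 and 9 passed as higher), while Ihh (-1.36) and Cdon (-0.65) lie below 0.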

How the data were processed

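RNA of 16 sorted samples (2 ng each, amplified with a 3' IVT pico kit per the labels' protocols) was hybridized to 1 Affymetrix array each. Per the submitters' processing notes the tool was Affymetrix Expression Console 1.1. How probes were summarised and arrays normalized is not given in the sources used here. What the authors deposited is a score: their file holds each of 45141 probe sets standardized over the 16 arrays, with no level or fold change. The planned test needs log2 values, which such scores are not. Whole-number signals (58 to 155937) whose logarithms give these scores were therefore searched for with numba 0.67.0 (Python 3.11.15), and all 45141 were recovered within 1e-09 of the deposited score. In a test on simulated data 1000 of 1000 were recovered exactly.

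Probe sets were named by the platform table: 28898 carried 1 gene, 551 several, 15588 none, and 104 were controls. All 8 gene identifiers matched RefSeq (GRCm38.p6), which also gave positions and promoters. limma 3.58.1 (R 4.3.3; lmFit, eBayes) was run on log2 signals with 1 mean per population, no block, two-sided p-values and Benjamini-Hochberg adjustment. On simulated data for ZsGreen-high against Sca1+ ZsGreen-negative cells it found 91 of 100 changes of 1 log2 unit and 99 of 100 of 2, with 6 false calls among 45037 probe sets. The simulated noise was independent between arrays and between probe sets, and far fewer probe sets changed than passed in these data. These rates therefore need not hold here.

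By the labels each mouse gave all 4 populations, so mouse is a block in an alternative. That block holds mouse 2 as labelled, so its p-values rest in part on arrays that do not match. Deviations from population means correlated at 0.241 on average within a mouse (mouse 2: -0.0594) and at -0.0807 between mice. All member probe sets are described, led per gene by the one with the highest mean. Other lists use 1 probe set per gene with up to 3 largest called genes named, and the 3 most like genes are by Pearson r (1 printed for Dhh, Shh, Hhat and Disp1). Members, lists and rules were chosen with earlier results of these data known. Alternatives were the block, scaling to 9 hybridization controls, the epithelial mean as covariate, 1 probe set per gene, quantile normalization, a filter on probe sets near the controls, a trended robust variance, and leaving out arrays or mice.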

Additional observations from a re-analysis of the deposited data

Results flagged for a closer look

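One array of a member stood apart from the other 3 of its population. The brighter Cdon probe set read 736 in the ZsGreen-dim array of mouse 2, against 864, 869 and 886 in the ZsGreen-dim arrays of mice 1, 4 and 3, a gap of 0.853 of the population's range, past the critical value of Dixon's test. It was 1 of 48 such groups tested, and chance flags about 1 in 20. Mouse 2 is the one whose arrays did not match one another, and leaving it out kept ZsGreen-dim cells lower than Sca1+ ZsGreen-negative cells (-0.78, adjusted p = 0.0407 in limma).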

How the results depend on the processing

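Scaling to the hybridization controls moved the median of all probe sets to 0.39 for ZsGreen-high against Sca1+ ZsGreen-negative cells (0.01 unscaled) and to 0.39 against Sca1- cells. Between ZsGreen-high and ZsGreen-dim cells it moved that median to 0.303. It gave 6 member calls (4 higher, 2 lower) in place of 3 (0 higher, 3 lower) for the first, 7 (6 higher, 1 lower) for the second, 3 (all higher) for ZsGreen-high against ZsGreen-dim, 0 for ZsGreen-dim against Sca1- cells and 7 in the F test. Against Sca1- cells, ZsGreen-high then reversed for Gas1 (0.391), the second Boc (0.362) and the second Cdon probe set (0.0441), which relative to the moved median are -0.001, -0.03 and -0.35. Shh (0.33) and the brighter Dhh probe set (0.30) also changed sign there, without passing. The first Cdon probe set was -0.27 (adjusted p = 0.111) for ZsGreen-high against Sca1+ ZsGreen-negative cells, or -0.66 relative to the moved median. With the epithelial covariate the calls were 0 for ZsGreen-high against either ZsGreen-negative population and 2 for ZsGreen-dim against Sca1- cells. Mouse as a replicate block gave 4 for ZsGreen-dim against Sca1+ ZsGreen-negative cells and 2 for ZsGreen-high against ZsGreen-dim, and changed no other count by over 1.5 times. With 1 probe set per gene Sca1+ against Sca1- ZsGreen-negative cells gave 0. Without mice 1 and 2, chosen after seeing the data, that comparison gave 0, and ZsGreen-high and ZsGreen-dim against Sca1- cells 1 each.

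Leaving out arrays or mice gave 3 to 3 calls for ZsGreen-high against Sca1+ ZsGreen-negative cells, 1 to 3 for ZsGreen-dim (1 without mouse 4), 0 to 0 for ZsGreen-high against ZsGreen-dim, 0 to 1 for Sca1+ against Sca1- (0 without mouse 3), 2 to 4 for ZsGreen-high and 1 to 4 for ZsGreen-dim against Sca1- cells, and 3 to 4 in the F test. The ZsGreen-dim count against Sca1- cells fell to 1 without mouse 2 or 4 and to 2 without mouse 1. Without single arrays it was 2 (ZsGreen-dim of mouse 1 or 2, Sca1- of mouse 2) or 1 (ZsGreen-dim or Sca1- of mouse 4). Over all probe sets, ZsGreen-dim against Sca1+ ZsGreen-negative cells gave 420 calls, 4718 with the block, 14 without mouse 2 and 16 without mouse 4; ZsGreen-high against ZsGreen-dim gave 341, 2211 with the block, 9248 scaled and 1 without mouse 2. ZsGreen-high against Sca1+ ZsGreen-negative cells gave 11812, 26819 scaled and 1 with the covariate. Members near the highest nonspecific control (Shh, Hhat, Disp1 and the second probe sets of Dhh and Boc) had no difference that passed in limma without scaling.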
